A study of Mus musculus with 13 samples.

Results

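The genes of collagens and laminins were taken as every gene whose symbol is Col, a number, a and a number, or Lama, Lamb or Lamc and a number, and which had a probe set with that symbol alone on the array. This gave 54 of the 19937 genes measured, 44 collagens and 10 laminin chains, read by 56 probe sets. RNA of the pooled retinae of 1 mouse was hybridized to each Affymetrix Mouse Gene 1.0 ST array, and 13 arrays were compared in 4 groups. KO light were PGC-1α knockout mice exposed to 15000 lux of white light for 2 h, with 3 arrays labelled male. WT light were wild-type mice given the same exposure, with 3 arrays labelled male. KO dark were knockout mice kept in darkness, with 3 arrays labelled female. WT dark were wild-type mice kept in darkness, with 3 arrays labelled female and 1, WT dark 4, labelled male. The knockout is global and on a C57BL/6 background, so PGC-1α is lacking in every tissue from birth, the WT mice were C57BL/6 NRj mice bought from a breeder, and the methods give ages of 6 to 13 weeks for the light experiment. Light-exposed mice recovered overnight in darkness after dilation of their pupils. By these labels sex changes together with light in the arrays compared, so the effects of light and sex cannot be told apart, while KO and WT were compared within one sex.

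Collagens are built of alpha chains wound into a triple helix. Fibrillar collagens form the tensile fibrils of connective tissue and of the vitreous, FACIT collagens sit on the surface of such fibrils, type IV collagens form the sheet of basement membranes, and type VI collagens form beaded microfibrils around cells. Laminins are cross-shaped trimers of an alpha, a beta and a gamma chain that assemble first in a basement membrane and bind integrins and dystroglycan on cells. In the eye these proteins make up the inner limiting membrane on which the endfeet of Müller glia rest, the walls of retinal vessels and Bruch's membrane below the pigment epithelium. In bulk RNA fewer cells of a type and less RNA per cell cannot be told apart.

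Among the arrays 2 stood apart from others of their label, and values were therefore given in more than one way. Over all genes the array labelled WT dark 4 correlated on average at 0.9975 with KO light 1 and 2 and at 0.9892 with WT dark 1 to 3. The array labelled KO light 3 correlated at 0.9921 with KO light 1 and 2 and at 0.9968 with WT dark 1 to 3. Values as labelled use the 12 arrays without WT dark 4. Values with the exchanged arrays use WT dark 4 in place of KO light 3 as the third KO light array and leave out KO light 3. This choice rests on likeness in these same intensities, so all p-values and calls of that fit are conditional on it. For KO light against WT light 35 genes were called as labelled and 1640 with the exchanged arrays. Ppargc1a, the gene of PGC-1α, had log2 intensities of 10.02, 10.25 and 9.96 in KO light against 9.96, 9.85 and 9.99 in WT light retinae. In the dark it had 10.4, 10.19 and 10.26 in KO dark against 10.03, 10.01 and 10.02 in WT dark retinae. It was not lower in the knockout, and since the deleted part of the gene is not given for its probe set, this level does not check the genotype labels. The rod marker list averaged 11.97 to 12.33 and the pigment epithelium and melanocyte list 6.49 to 7.72 over the 12 arrays.

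As labelled, none of the 54 genes was called in any of the 5 comparisons. A gene was called at a p-value under 0.05 in limma after Benjamini-Hochberg adjustment over all 19937 genes together with a ratio of 1.2 or more or 0.87 or less, and for the interaction at the adjusted p alone. The share of all genes called was 0.176% for KO light against WT light, 0.0752% for KO dark against WT dark, 0.1% for KO light against KO dark, 0.431% for WT light against WT dark and 0.0602% for the interaction, which is the light response of KO minus that of WT. At an unadjusted p under 0.05 there were 8, 3, 7, 5 and 5 members in these comparisons, against 12.9%, 7.1%, 13.9%, 17.1% and 6.86% of all genes. With the ordinary variance of each gene, which also called none, there were 9, 5, 7, 3 and 5, against 12.2%, 7.27%, 12.5%, 15.7% and 6.8% of all genes. The smallest adjusted p of a member was 0.121, 0.0768, 0.119, 0.0897 and 0.356. The median standard error of a member's log2 difference was 0.067. Between arrays the values of single members spanned 0.14 to 0.92 on the log2 scale, and for 47 of the 54 genes the 12 arrays lay within 0.5.

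**Figure D1:**
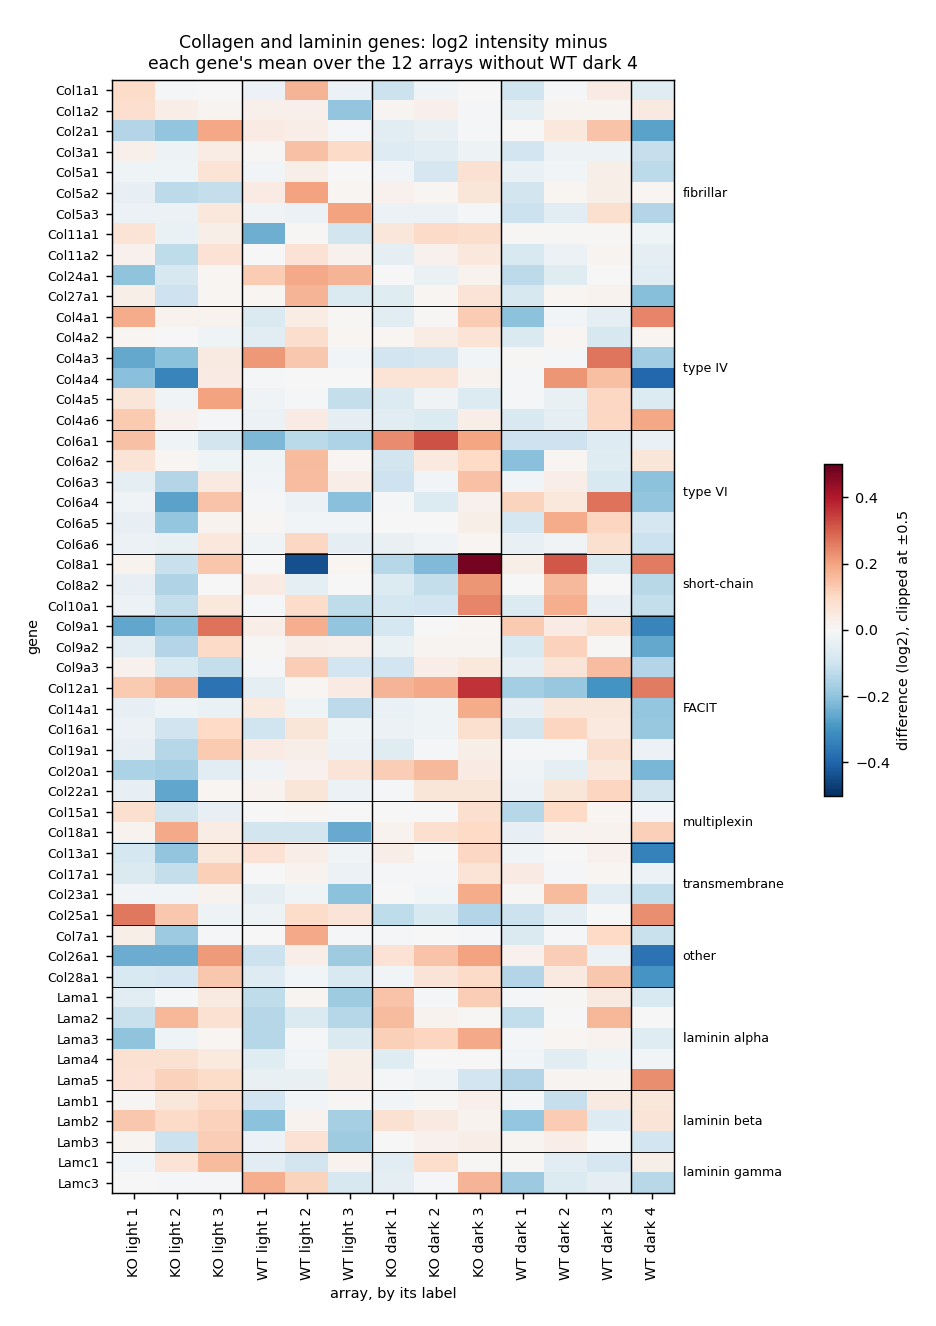
Log2 intensity of each of the 54 genes (rows, grouped by class) on each of the 13 arrays (columns, by label) minus the gene's mean over the 12 arrays without WT dark 4, with the colour scale ending at ±0.5. No block of genes separates the 4 groups, while single rows such as Col6a1 (dark red in KO dark, up to 8.57 log2 units) and Col12a1 (dark blue in KO light 3, at 7.13) stand out.

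In dark-kept retinae Col12a1 and Col6a1 were called higher in KO when the arrays were exchanged or the dark arrays were fitted alone, and not as labelled. Col12a1 encodes the FACIT collagen XII, which decorates fibrils of collagen I. Its log2 intensities were 7.67, 7.69 and 7.86 in KO dark against 7.33, 7.31 and 7.2 in WT dark retinae, so that every KO dark array lay above every WT dark array. The log2 difference was 0.46 ± 0.12 (SE, adjusted p = 0.193) as labelled. It was 0.46 ± 0.06 (SE, adjusted p = 0.00164) with the exchanged arrays and 0.46 ± 0.06 (SE, adjusted p = 0.0186) with the 6 dark arrays alone. These fits hold the same 6 dark arrays and differ only in the spread, to which the KO light arrays contribute 7.63, 7.67 and 7.13. The third of these lay below every other array, and the array labelled WT dark 4, at 7.76, lay in the range of KO dark. In light the WT arrays of Col12a1 had 7.45, 7.51 and 7.54, between the KO light arrays 1 and 2 and WT dark.

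Col6a1 encodes a chain of collagen VI, and its log2 intensities were 8.49, 8.57 and 8.45 in KO dark against 8.15, 8.15 and 8.19 in WT dark retinae, again without overlap. The log2 difference was 0.34 ± 0.06 (SE, adjusted p = 0.0768) as labelled, 0.34 ± 0.05 (SE, adjusted p = 0.00823) with the exchanged arrays and 0.34 ± 0.05 (SE, adjusted p = 0.0175) with the dark arrays alone. In light it had 8.4, 8.23 and 8.16 in KO light against 8.03, 8.12 and 8.1 in WT light retinae, with 8.22 on the array labelled WT dark 4. All KO light arrays lay above all WT light arrays, with a difference of 0.18 ± 0.06 (SE, adjusted p = 0.257) as labelled and 0.20 ± 0.05 (SE, adjusted p = 0.0301) with the exchanged arrays, where the ratio stayed under 1.2. Leaving out each array in turn with the exchanged arrays gave adjusted p-values of 0.00335 to 0.0475 for Col6a1 and 0.00221 to 0.0114 for Col12a1 in the dark, and both stayed called. Then 3.7% of members and 0.326% of all genes were called higher in KO dark, and with the dark arrays alone the same 2 members and 0.261% of all genes. Of the 7 members on chromosome 9 of GRCm38.p6, which include Col12a1, no other was called in this comparison. As labelled, KO dark and WT dark did not overlap for 10 members, 18.5% of them, against 16.7% of all genes. The others of these with higher values were Col11a1, Col4a2, Lama3 and Lamc3, and those with lower values Col2a1, Col4a3, Col6a4 and Col9a1.

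The promoter of Col6a1 is shown because this gene had the smallest p in the dark as labelled (with the exchanged arrays Col12a1 did). That of Col24a1 is shown for its difference between KO light and WT light. That of Col25a1 is shown for its difference between KO light and KO dark, where sex changes together with light. Each is the stretch of 250 bases before the gene's start in RefSeq on GRCm38.p6, at chr10:76726045-76726294 (minus strand), chr3:145292222-145292471 (plus strand) and chr3:130180595-130180844 (plus strand), written 5′ to 3′ on the gene's strand. Capitals mark matches on either strand to the AP-1 site TGACTCA, the nuclear receptor half-site AAGGTCA, the CCAAT box CCAAT, the GC box GGGCGG or the TATA box TATAAA.
Col6a1: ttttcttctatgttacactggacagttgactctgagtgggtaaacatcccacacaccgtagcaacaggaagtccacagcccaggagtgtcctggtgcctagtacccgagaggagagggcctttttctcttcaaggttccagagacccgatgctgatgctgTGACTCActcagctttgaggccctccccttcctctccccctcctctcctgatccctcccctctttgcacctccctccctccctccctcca
Col24a1: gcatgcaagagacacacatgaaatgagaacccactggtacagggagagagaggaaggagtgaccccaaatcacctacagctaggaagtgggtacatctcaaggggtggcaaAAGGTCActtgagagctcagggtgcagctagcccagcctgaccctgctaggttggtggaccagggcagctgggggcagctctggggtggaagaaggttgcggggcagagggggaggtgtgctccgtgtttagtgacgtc
Col25a1: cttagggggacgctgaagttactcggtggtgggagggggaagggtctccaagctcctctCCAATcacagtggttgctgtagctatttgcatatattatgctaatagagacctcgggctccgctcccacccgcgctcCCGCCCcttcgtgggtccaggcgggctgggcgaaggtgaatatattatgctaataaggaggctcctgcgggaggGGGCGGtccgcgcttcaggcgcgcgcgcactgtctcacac
Col6a1 held an AP-1 site 90 bases before the start, Col24a1 a nuclear receptor half-site 139 bases before it, and Col25a1 a CCAAT box and 2 GC boxes. The promoters of Col20a1 and Col4a4, which were also called in light with the exchanged arrays, held none of these motifs. That of Col13a1, called likewise, held a TATA box 237 bases before the start. AAGGTCA is the half-site that estrogen-related receptors, partners of PGC-1α, are known to bind. Of the 54 members 40 had a promoter in the table. The AP-1 letters were in the promoter of 1 of them, against 4.46% of all 32851 promoters, and the half-site was in 5 (Col7a1, Col9a1, Col11a1, Col23a1 and Col24a1), against 4.08%. The CCAAT box was in 14, against 33.8%, the GC box in 23, against 32.7%, and the TATA box in 5, against 12.4%. A match describes the letters alone.

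In light-exposed retinae 7 collagens were called lower in KO than in WT with the exchanged arrays and none as labelled. Col24a1, a minor fibrillar collagen known from bone and cornea of the mouse, had log2 intensities of 6.88, 7.0 and 7.09 in KO light against 7.21, 7.27 and 7.25 in WT light retinae, without overlap. The difference was -0.25 ± 0.06 (SE, adjusted p = 0.121) as labelled and -0.27 ± 0.05 (SE, adjusted p = 0.00405) with the exchanged arrays. Without KO light 3 and with no array in its place it was -0.30 ± 0.06 (SE, adjusted p = 0.00796). The array labelled WT dark 4 had 7.03, and the dark arrays 7.08, 7.05 and 7.1 in KO dark against 6.95, 7.02 and 7.08 in WT dark retinae.

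Col4a3 and Col4a4, whose chains join that of Col4a5 in the collagen IV of mature basement membranes, were both called lower with the exchanged arrays. Col4a3 had 6.99, 7.04 and 7.29 in KO light against 7.46, 7.38 and 7.23 in WT light retinae and 7.07 on the array labelled WT dark 4. Col4a4 had 6.95, 6.83 and 7.2 in KO light against 7.15, 7.16 and 7.16 in WT light retinae and 6.77 on that array. For both genes KO light 1 and 2 lay below every WT light array and KO light 3 lay among or above them. The differences were -0.25 ± 0.09 (SE, adjusted p = 0.288) for Col4a3 and -0.17 ± 0.08 (SE, adjusted p = 0.427) for Col4a4 as labelled. After the exchange they were -0.32 ± 0.07 (SE, adjusted p = 0.012) and -0.31 ± 0.06 (SE, adjusted p = 0.00553). Without WT light 1 the call of Col4a3 was lost at an adjusted p of 0.055, and that of Col4a4 held in every fit that left out 1 array (adjusted p = 0.00263 to 0.0324).

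Col2a1 and Col9a1 encode chains of the collagens II and IX of cartilage and vitreous fibrils, and Col20a1 and Col13a1 a FACIT and a transmembrane collagen. Col2a1 had 7.93, 7.88 and 8.27 in KO light against 8.12, 8.11 and 8.07 in WT light retinae and 7.81 on the array labelled WT dark 4, so KO light 3 stood above all WT light arrays and the rest of KO light below them. Col9a1 had 7.85, 7.9 and 8.38 in KO light against 8.14, 8.29 and 7.91 in WT light retinae and 7.78 on that array. As labelled the differences were -0.08 ± 0.08 (SE, adjusted p = 0.752) and -0.07 ± 0.12 (SE, adjusted p = 0.867). The SD of the KO light arrays, 0.21 for Col2a1 and 0.29 for Col9a1, was larger than this distance to WT light for both genes. After the exchange they were -0.23 ± 0.05 (SE, adjusted p = 0.00835) and -0.27 ± 0.08 (SE, adjusted p = 0.0418). The call of Col9a1 was lost in 10 of the 12 fits that left out 1 array of these, all but those without KO light 2 or WT light 3, and Col2a1 lost its call without the array labelled WT dark 4 by its ratio alone.

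Col20a1 had 8.28, 8.27 and 8.38 in KO light against 8.42, 8.46 and 8.5 in WT light retinae, without overlap, and 8.21 on the array labelled WT dark 4. Col13a1 had 7.36, 7.25 and 7.5 in KO light against 7.52, 7.48 and 7.43 in WT light retinae, and 7.11 on that array. The differences of Col20a1 were -0.15 ± 0.05 (SE, adjusted p = 0.268) as labelled and -0.21 ± 0.05 (SE, adjusted p = 0.0121) with the exchanged arrays, and those of Col13a1 were -0.10 ± 0.06 (SE, adjusted p = 0.509) and -0.23 ± 0.06 (SE, adjusted p = 0.0207). The call of Col20a1 was lost without WT light 3 and without the array labelled WT dark 4, where its adjusted p was 0.0615. That of Col13a1 was lost without WT light 1, without WT light 2 and without the array labelled WT dark 4, with adjusted p-values up to 0.0912.

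**Figure D2:**
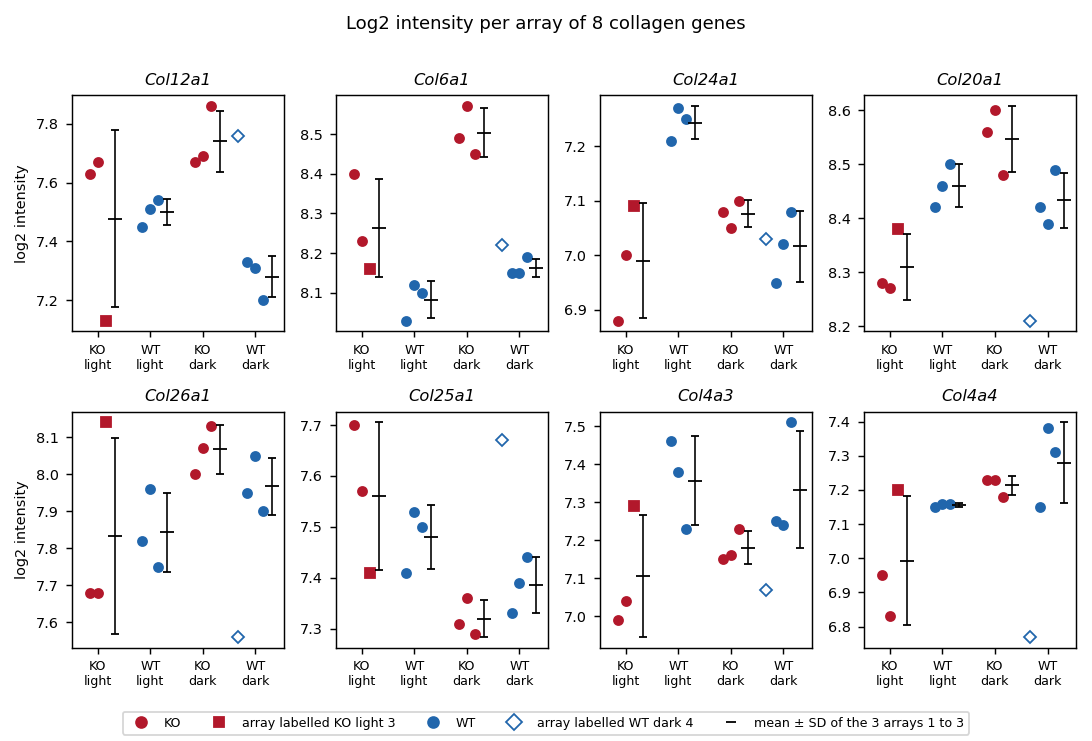
Log2 intensity (y axis) of 8 collagen genes on each array, by group (x axis), for KO in red and WT in blue, with the array labelled KO light 3 as a square, that labelled WT dark 4 as an open diamond, and black bars for the mean ± SD of the arrays 1 to 3 of each group. For Col26a1, Col4a3, Col4a4 and Col25a1 the square lies with the WT or dark arrays and the diamond near KO light 1 and 2, and for Col12a1 the square lies at 7.13 and the diamond at 7.76.

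In total 7 members, 13% of them, were called lower in KO light than in WT light with the exchanged arrays, against 3.66% of all genes, and none higher, against 4.56%. Without KO light 3 and with no array in its place 3 members (Col24a1, Col4a3 and Col4a4) were lower, 5.56% of them, against 2.04% of all genes. KO light and WT light arrays did not overlap for 9 members as labelled, 16.7% of them, against 14.1% of all genes. After the exchange this held for 23 members, 42.6% of them and 29.3% of all genes, with 16 of the 23 lower in KO light. The median log2 difference over the 54 genes was -0.02 as labelled and -0.07 with the exchanged arrays, against -0.01 and -0.02 over all genes.

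Higher values in KO light were seen for the endostatin precursor Col18a1 and for Lamb2, the beta chain of synaptic and retinal laminins, although neither was called. Col18a1 had 8.17, 8.34 and 8.19 in KO light against 8.06, 8.06 and 7.9 in WT light retinae, without overlap, and a difference of 0.23 ± 0.06 (SE, adjusted p = 0.156) as labelled and 0.25 ± 0.06 (SE, adjusted p = 0.0114) with the exchanged arrays. After the exchange its ratio of 1.19 missed the threshold of 1.2. Lamb2 had 8.27, 8.23 and 8.25 in KO light against 7.93, 8.15 and 7.97 in WT light retinae, also without overlap, and differences of 0.24 ± 0.08 (SE, adjusted p = 0.234) and 0.22 ± 0.07 (SE, adjusted p = 0.0737). In the dark the arrays of both genes overlapped or nearly met, with 8.17, 8.23 and 8.25 in KO dark against 8.11, 8.17 and 8.17 in WT dark retinae for Col18a1 and 8.21, 8.18 and 8.15 in KO dark against 7.94, 8.26 and 8.07 in WT dark retinae for Lamb2. Col5a2, a chain of the fibril-starting collagen V, was the fourth member by p as labelled. It had 6.17, 6.08 and 6.09 in KO light against 6.25, 6.41 and 6.22 in WT light retinae and a difference of -0.18 ± 0.06 (SE, adjusted p = 0.245) as labelled and -0.14 ± 0.06 (SE, adjusted p = 0.156) with the exchanged arrays.

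**Figure D3:**
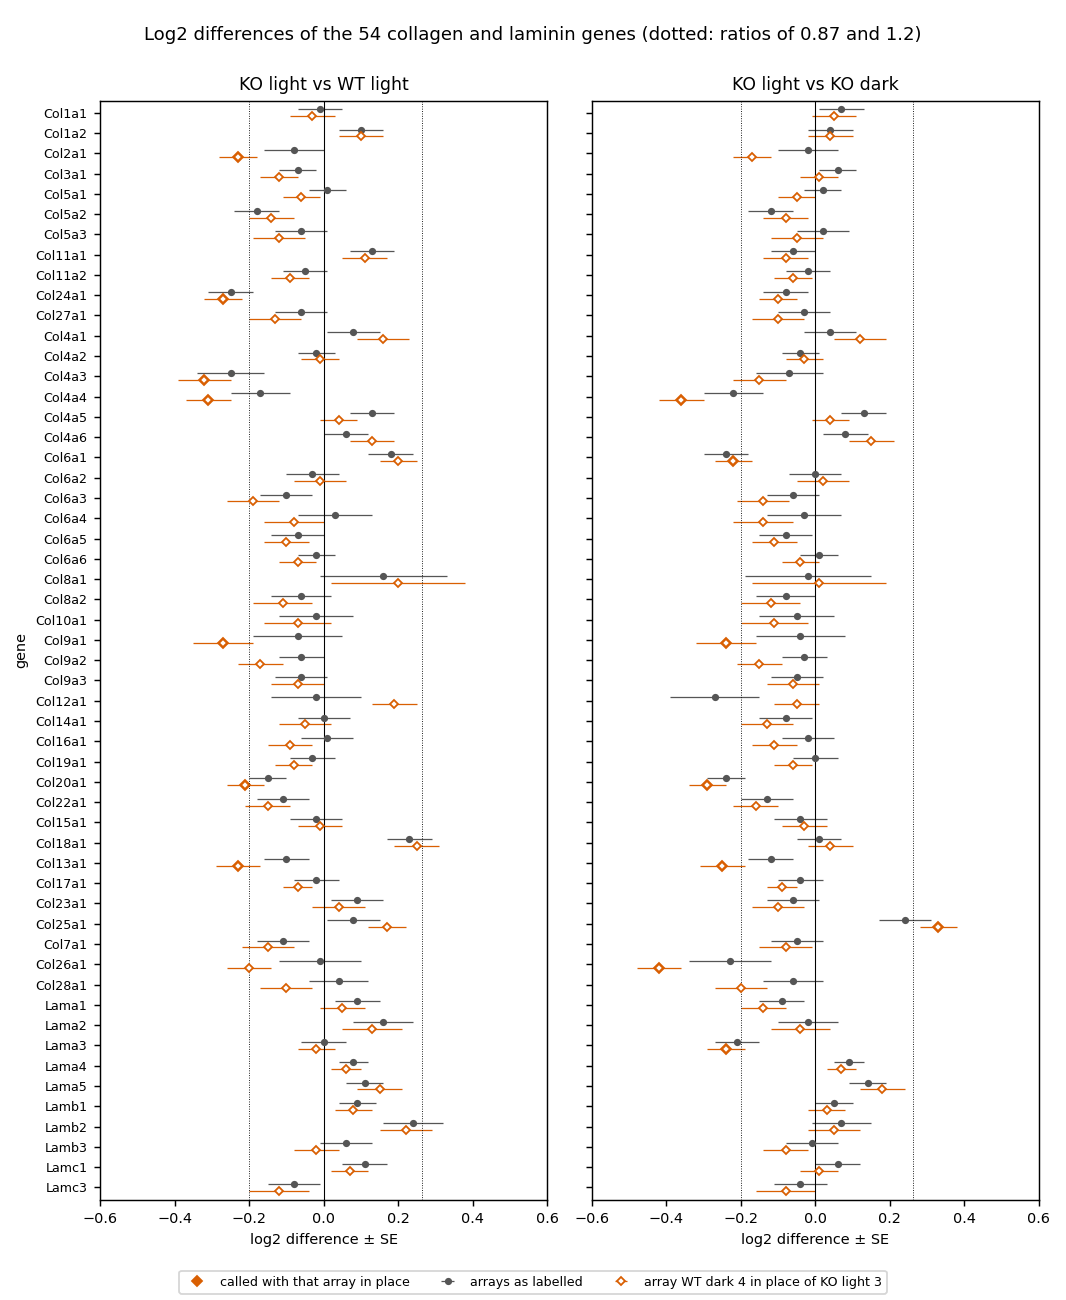
Log2 difference ± SE (x axis) of each of the 54 genes (y axis) for KO light against WT light and for KO light against KO dark, with grey points for the arrays as labelled, orange diamonds for the array labelled WT dark 4 in place of KO light 3, filled where the gene was called, and dotted lines at ratios of 0.87 and 1.2. No grey point was a call, while 7 diamonds on the left and 8 on the right were, of which only Col25a1 at 0.33 lies above 0.

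Between KO light and KO dark the comparison crosses sexes, and with the exchanged arrays 7 members were called lower and 1 higher. Col26a1, a collagen with few helical stretches, had 7.68, 7.68 and 8.14 in KO light against 8.0, 8.07 and 8.13 in KO dark retinae, with 7.56 on the array labelled WT dark 4. KO light 1 and 2 lay below every KO dark array and KO light 3 above them. The difference was -0.23 ± 0.11 (SE, adjusted p = 0.369) as labelled, -0.42 ± 0.06 (SE, adjusted p = 0.000502) with the exchanged arrays and -0.38 ± 0.07 (SE, adjusted p = 0.00355) without KO light 3. In WT mice Col26a1 had 7.82, 7.96 and 7.75 in WT light against 7.95, 8.05 and 7.9 in WT dark retinae, with overlap.

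Col25a1, a transmembrane collagen of neurons, was the member with the smallest p among those that were higher. It had 7.7, 7.57 and 7.41 in KO light against 7.31, 7.36 and 7.29 in KO dark retinae, with 7.67 on the array labelled WT dark 4, and no KO light array lay below any KO dark array. The difference was 0.24 ± 0.07 (SE, adjusted p = 0.175) as labelled and 0.33 ± 0.05 (SE, adjusted p = 0.000623) with the exchanged arrays, and leaving out 1 array in turn gave adjusted p-values of 0.000427 to 0.00412. In WT mice it had 7.41, 7.53 and 7.5 in WT light against 7.33, 7.39 and 7.44 in WT dark retinae.

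Col20a1 had 8.28, 8.27 and 8.38 in KO light against 8.56, 8.6 and 8.48 in KO dark retinae, without overlap, and differences of -0.24 ± 0.05 (SE, adjusted p = 0.119) as labelled and -0.29 ± 0.05 (SE, adjusted p = 0.000793) with the exchanged arrays. Col4a4 had 7.23, 7.23 and 7.18 in KO dark retinae beside the KO light values above, and differences of -0.22 ± 0.08 (SE, adjusted p = 0.269) and -0.36 ± 0.06 (SE, adjusted p = 0.00103). Lama3, the alpha chain of the laminin of epithelial anchoring sites, had 6.51, 6.69 and 6.72 in KO light against 6.83, 6.82 and 6.9 in KO dark retinae, without overlap, and differences of -0.21 ± 0.06 (SE, adjusted p = 0.175) and -0.24 ± 0.05 (SE, adjusted p = 0.00685). Its call was lost without KO light 1, where the ratio stayed above 0.87. Col6a1, higher in KO dark than in WT dark as given above, had differences of -0.24 ± 0.06 (SE, adjusted p = 0.163) and -0.22 ± 0.05 (SE, adjusted p = 0.0137), and its call was lost without KO dark 2, without KO light 2 and without the array labelled WT dark 4.

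Col13a1 and Col9a1 had 7.48, 7.45 and 7.55 and 8.02, 8.11 and 8.12 in KO dark retinae. Their differences between KO light and KO dark were -0.12 ± 0.06 (SE, adjusted p = 0.409) and -0.04 ± 0.12 (SE, adjusted p = 0.922) as labelled. The exchanged arrays gave -0.25 ± 0.06 (SE, adjusted p = 0.00873) and -0.24 ± 0.08 (SE, adjusted p = 0.0425). The call of Col13a1 was lost without the array labelled WT dark 4, and that of Col9a1 in 9 of the 12 fits that left out 1 array, all but those without KO light 2, WT light 2 or WT light 3.

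In this comparison 7 members, 13% of them, were called lower in KO light with the exchanged arrays, against 6.3% of all genes, and 1 member, 1.85% of them, was called higher, against 7.01%. Without KO light 3 and with no array in its place 4 members (Col4a4, Col20a1, Col26a1 and Lama3) were lower, 7.41% of them and 4.25% of all genes, and Col25a1 alone was higher, against 5.68% of all genes. As labelled KO light and KO dark did not overlap for 9 members, 16.7% of them, against 13.1% of all genes. After the exchange this was so for 20 members, 37.0% of them, against 38.0% of all genes, with 17 of the 20 lower in KO light. The share of genes that did not overlap was thus close to that of all genes in this comparison. The difference was positive for 16 members and negative for 38 as labelled. The shares of all genes with these signs are not given, so the counts do not set the members apart.

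In WT mice light and dark differed for no member by the call, as labelled or with the exchanged arrays, where 4.41% of all genes were called. Col24a1 had 7.21, 7.27 and 7.25 in WT light against 6.95, 7.02 and 7.08 in WT dark retinae, without overlap, and a difference of 0.23 ± 0.06 (SE, adjusted p = 0.0897) as labelled and 0.23 ± 0.05 (SE, adjusted p = 0.0183) with the exchanged arrays, at a ratio of 1.17. Col3a1, the collagen III of vessel walls, had 6.81, 6.95 and 6.9 in WT light against 6.71, 6.78 and 6.78 in WT dark retinae and a difference of 0.13 ± 0.05 (SE, adjusted p = 0.206). Col18a1 was lower at -0.15 ± 0.06 (SE, adjusted p = 0.247), with the values given above. Col6a4, a further chain of collagen VI, had 6.62, 6.6 and 6.42 in WT light against 6.74, 6.68 and 6.9 in WT dark retinae and a difference of -0.23 ± 0.10 (SE, adjusted p = 0.252) as labelled. Col12a1 had a difference of 0.22 ± 0.06 (SE, adjusted p = 0.0445) with the exchanged arrays, at a ratio of 1.16. The arrays of WT light and WT dark did not overlap for 7 members, 13% of them, against 28.2% of all genes.

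Whether KO and WT differed in their change from dark to light was tested by the interaction. Sex changes together with light in these arrays, so a different response to light and a different effect of sex cannot be told apart. Col20a1 and Col24a1 differed with the exchanged arrays. The interaction of Col20a1 was -0.26 ± 0.07 (SE, adjusted p = 0.428) as labelled and -0.32 ± 0.07 (SE, adjusted p = 0.0249) with the exchanged arrays. In WT mice it had 8.42, 8.46 and 8.5 in WT light against 8.42, 8.39 and 8.49 in WT dark retinae, with overlap, beside the lower values of KO light against KO dark given above. The interaction of Col24a1 was -0.31 ± 0.08 (SE, adjusted p = 0.356) as labelled and -0.33 ± 0.07 (SE, adjusted p = 0.0289) with the exchanged arrays. Its WT arrays were higher in light than in the dark, whereas the KO values were 6.88, 7.0 and 7.09 in KO light against 7.08, 7.05 and 7.1 in KO dark retinae. Both members together were 3.7% of the members, against 0.782% of all genes with a negative interaction called. These calls were near the threshold, since Col20a1 lost its call in 6 and Col24a1 in 9 of the 12 fits that left out 1 array, with adjusted p-values up to 0.0696 and 0.0763. Those without which Col24a1 kept its call were the array labelled WT dark 4, WT dark 3 and KO light 2. Col20a1 lost its call without KO dark 1, KO dark 2, WT dark 1, WT dark 2, WT light 2 or the array labelled WT dark 4. Without KO light 3 and with no array in its place only Col24a1 was called (-0.36 ± 0.07 (SE, adjusted p = 0.0384)), against 0.291% of all genes. The interactions of Col12a1 and Col5a2 were -0.48 ± 0.16 (SE, adjusted p = 0.557) and -0.22 ± 0.08 (SE, adjusted p = 0.608) as labelled and -0.27 ± 0.09 (SE, adjusted p = 0.117) and -0.18 ± 0.08 (SE, adjusted p = 0.299) with the exchanged arrays.

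Of the 6 type IV collagens only Col4a3 and Col4a4 were called in any comparison, both with the exchanged arrays. Col4a1 and Col4a2, the chains of every basement membrane, are transcribed away from each other on chromosome 8, and RefSeq places their starts 21 bases apart. Col4a1 had 7.65, 7.48 and 7.48 in KO light against 7.39, 7.5 and 7.47 in WT light retinae, and 7.41, 7.47 and 7.59 in KO dark against 7.26, 7.45 and 7.42 in WT dark retinae. On the array labelled WT dark 4 it had 7.71, the highest of the 13 arrays. Its difference between KO light and WT light was 0.08 ± 0.07 (SE, adjusted p = 0.668) as labelled and 0.16 ± 0.07 (SE, adjusted p = 0.173) with the exchanged arrays. Col4a2 had 7.48, 7.47 and 7.45 in KO light against 7.42, 7.56 and 7.48 in WT light retinae, and 7.48, 7.51 and 7.54 in KO dark against 7.4, 7.48 and 7.39 in WT dark retinae. Its difference between KO light and WT light was -0.02 ± 0.05 (SE, adjusted p = 0.906), and that between KO dark and WT dark, where the arrays did not overlap, 0.09 ± 0.05 (SE, adjusted p = 0.813).

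Col4a5 and Col4a6 lie on chromosome X, also in opposite directions, with starts 1343 bases apart. Col4a5 had 7.25, 7.17 and 7.39 in KO light against 7.17, 7.18 and 7.07 in WT light retinae, with 7.12 on the array labelled WT dark 4, and a difference of 0.13 ± 0.06 (SE, adjusted p = 0.406) as labelled and 0.04 ± 0.05 (SE, adjusted p = 0.662) with the exchanged arrays. In the dark it had 7.12, 7.17 and 7.12 in KO dark against 7.18, 7.15 and 7.29 in WT dark retinae. Col4a6 had 6.65, 6.54 and 6.51 in KO light against 6.49, 6.56 and 6.47 in WT light retinae, with 6.71 on that array, and 6.46, 6.45 and 6.55 in KO dark against 6.44, 6.47 and 6.62 in WT dark retinae. Its difference between KO light and WT light was 0.06 ± 0.06 (SE, adjusted p = 0.742) as labelled and 0.13 ± 0.06 (SE, adjusted p = 0.199) with the exchanged arrays. Thus Col4a3 and Col4a4 were called lower in KO light than in WT light with the exchanged arrays, and the means of Col4a1, Col4a5 and Col4a6 were higher without a call.

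The 11 fibrillar collagens included both chains of collagen I, the main collagen of sclera. Col1a1 had 7.89, 7.79 and 7.8 in KO light against 7.77, 7.97 and 7.77 in WT light retinae, and Col1a2 7.68, 7.63 and 7.61 in KO light against 7.62, 7.62 and 7.4 in WT light retinae. In the dark Col1a1 had 7.69, 7.78 and 7.8 in KO dark against 7.7, 7.79 and 7.84 in WT dark retinae and Col1a2 7.61, 7.62 and 7.59 in KO dark against 7.55, 7.61 and 7.61 in WT dark retinae. Their groups overlapped in all comparisons as labelled, with differences between KO light and WT light of -0.01 ± 0.06 (SE, adjusted p = 0.965) and 0.10 ± 0.06 (SE, adjusted p = 0.528). Col11a1, a partner of collagen II in vitreous and cartilage fibrils, had 7.45, 7.35 and 7.41 in KO light against 7.14, 7.39 and 7.29 in WT light retinae and a difference of 0.13 ± 0.06 (SE, adjusted p = 0.38) as labelled. The WT light array 1 at 7.14 was its lowest of all arrays. The differences of the 11 genes between KO light and WT light ran from -0.25 to 0.13 with a median of -0.06 as labelled, and from -0.27 to 0.11 with a median of -0.12 with the exchanged arrays.

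Of the 9 FACIT collagens 9 had a lower mean in KO light than in KO dark, as labelled as well as with the exchanged arrays, with medians of -0.05 and -0.13. Some differences were small beside their standard error, such as -0.02 ± 0.07 (SE) for Col16a1 and -0.03 ± 0.06 (SE) for Col9a2 as labelled. The share of all genes with this sign is not given, so the count does not set the class apart. Col9a2, a partner of Col9a1 in collagen IX, had 8.14, 8.05 and 8.29 in KO light against 8.2, 8.23 and 8.22 in WT light retinae, with 7.94 on the array labelled WT dark 4. Its difference between KO light and WT light was -0.06 ± 0.06 (SE, adjusted p = 0.767) as labelled and -0.17 ± 0.06 (SE, adjusted p = 0.073) with the exchanged arrays. In the dark it had 8.16, 8.21 and 8.21 in KO dark against 8.12, 8.31 and 8.2 in WT dark retinae. Only Col20a1 and Col9a1 of the class were called in that direction with the exchanged arrays.

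Apart from Col6a1 no type VI collagen was called, and the differences of the 6 genes between KO light and WT light ran from -0.1 to 0.18 as labelled. Col6a5 had 5.94, 5.79 and 6.0 in KO light against 5.99, 5.97 and 5.97 in WT light retinae, and 5.98, 5.98 and 6.01 in KO dark against 5.9, 6.17 and 6.09 in WT dark retinae. It and Col6a6 are each the mean of a pair of probe sets.

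The 3 short-chain collagens shared their high arrays. Col8a1, a collagen of vessels and of the corneal endothelium, varied most of all members. It had 7.26, 7.13 and 7.38 in KO light against 7.24, 6.8 and 7.25 in WT light retinae, and 7.1, 7.02 and 7.72 in KO dark against 7.27, 7.55 and 7.17 in WT dark retinae. KO dark 3 at 7.72 and WT dark 2 at 7.55 were its highest of the 12 arrays, and the same arrays were the highest for Col8a2 (7.0 and 6.94) and Col10a1 (6.12 and 6.06). Col10a1 had 5.85, 5.76 and 5.93 in KO light against 5.87, 5.97 and 5.75 in WT light retinae, and 5.79, 5.78 and 6.12 in KO dark against 5.81, 6.06 and 5.84 in WT dark retinae. None of these genes was called, and the largest of their differences between KO light and WT light was 0.16 ± 0.17 for Col8a1. Col23a1, a transmembrane collagen, had 8.43, 8.43 and 8.46 in KO light against 8.4, 8.42 and 8.24 in WT light retinae, and 8.44, 8.43 and 8.63 in KO dark against 8.45, 8.6 and 8.39 in WT dark retinae. KO dark 3 was the highest array for it too, at 8.63. Of the 5 pigment epithelium genes of the marker lists (Rpe65, Lrat, Best1, Ttr and Rdh5), set apart from the melanin genes after their values were seen, 4 were highest of the 12 arrays in KO dark 3 and Rdh5 in WT dark 2. Ttr had 10.55 in KO dark 3 and 10.38 in WT dark 2, and 8.12 in WT light 2, where Col8a1 was also lowest. Col8a2 and Col10a1 were not lowest there, with 6.73 and 5.97 in WT light 2. Their lowest values were 6.63 in KO light 2 and 5.75 in WT light 3. The other pigment epithelium genes followed these arrays less closely than Ttr. Rpe65 had 8.09 in KO dark 3 and was lowest in WT light 2 at 5.53. In WT dark 2 it had 7.2, under 7.75 in WT light 1 and 7.44 in KO dark 1, where Col8a1 had 7.24 and 7.1. Lrat had 6.97 in both WT dark 1 and WT dark 2, and Best1 5.99 and 5.98. In WT light 2 Lrat and Best1 had 6.41 and 5.79, which were not their lowest values. The array labelled WT dark 4, not among these 12, had 10.56 for Ttr and 8.34 for Rdh5. The 7 melanin genes of that list, such as Dct at 10.55, were all highest in KO light 2. The part of these cells in the levels of the short-chain collagens was not tested.

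Of the laminins only Lama3 was called, as given above. Of the 10 chains 9 had a higher mean in KO light than in WT light as labelled, with a median of 0.09, and 7 with the exchanged arrays, with a median of 0.06. In the dark 9 of the 10 had a higher mean in KO, with a median of 0.05. Some of these differences lay within their standard error, such as 0.06 ± 0.07 (SE) for Lamb3 in light and 0.01 ± 0.04 (SE) for Lama4 in the dark. The shares of all genes with these signs are not given, so the counts do not set the laminins apart. Lama1, the alpha chain of the inner limiting membrane, had 7.26, 7.31 and 7.36 in KO light against 7.19, 7.33 and 7.14 in WT light retinae, and 7.46, 7.31 and 7.44 in KO dark against 7.31, 7.32 and 7.36 in WT dark retinae. Lama4, the alpha chain of vessel walls, had 5.93, 5.93 and 5.9 in KO light against 5.79, 5.84 and 5.88 in WT light retinae, without overlap, and a difference of 0.08 ± 0.04 (SE, adjusted p = 0.474). In the dark Lama4 had 5.79, 5.85 and 5.85 in KO dark against 5.84, 5.8 and 5.83 in WT dark retinae. Lama5, also of vessels and of the inner limiting membrane, had 7.83, 7.87 and 7.85 in KO light against 7.72, 7.72 and 7.79 in WT light retinae and 7.99 on the array labelled WT dark 4. Its difference was 0.11 ± 0.05 (SE, adjusted p = 0.433) between KO light and WT light as labelled and 0.18 ± 0.06 (SE, adjusted p = 0.0361) between KO light and KO dark with the exchanged arrays, at a ratio of 1.13. In the dark Lama5 had 7.75, 7.74 and 7.66 in KO dark against 7.61, 7.77 and 7.77 in WT dark retinae.

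Lamb1 and Lamc1 are the beta and gamma chains shared by most laminins of basement membranes. Lamb1 had 7.29, 7.34 and 7.38 in KO light against 7.19, 7.27 and 7.29 in WT light retinae, and 7.27, 7.29 and 7.31 in KO dark against 7.28, 7.17 and 7.33 in WT dark retinae. Lamc1 had 7.98, 8.06 and 8.15 in KO light against 7.94, 7.9 and 8.01 in WT light retinae, and 7.94, 8.08 and 8.0 in KO dark against 8.0, 7.94 and 7.91 in WT dark retinae. Their differences between KO light and WT light were 0.09 ± 0.05 (SE, adjusted p = 0.499) and 0.11 ± 0.06 (SE, adjusted p = 0.449), so that neither was told apart. Lamc3, a gamma chain known from the retina, had 7.7, 7.69 and 7.69 in KO light against 7.88, 7.81 and 7.62 in WT light retinae, and 7.65, 7.69 and 7.87 in KO dark against 7.52, 7.63 and 7.65 in WT dark retinae. In the dark its arrays did not overlap, at 0.13 ± 0.07 (SE, adjusted p = 0.811), and in light its difference had the other sign, at -0.08 ± 0.07 (SE, adjusted p = 0.721).

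The remaining members were Col5a1, Col5a3, Col11a2, Col27a1, Col6a2, Col6a3, Col6a6, Col14a1, Col16a1, Col19a1, Col22a1, Col15a1, Col17a1, Col7a1, Col28a1, Lama2 and Lamb3. None of them was called in any comparison, as labelled or with the exchanged arrays. For all 54 genes the differences as labelled ran from -0.25 to 0.24 for KO light against WT light, from -0.16 to 0.46 for KO dark against WT dark, from -0.27 to 0.24 for KO light against KO dark and from -0.23 to 0.23 for WT light against WT dark.

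Among genes that make, cut and bind these proteins 2 were called as labelled between KO light and WT light. Pcolce encodes the enhancer of the proteinase that trims the end of procollagens, and it was one of them. It had 9.02, 8.62 and 8.6 in KO light against 7.78, 7.96 and 8.11 in WT light retinae, without overlap, and 7.88, 7.96 and 7.94 in KO dark against 8.26, 8.59 and 8.44 in WT dark retinae. The array labelled WT dark 4 had 9.24, the highest of the 13. The difference between KO light and WT light was 0.80 ± 0.12 (SE, adjusted p = 0.0225) as labelled and 1.01 ± 0.13 (SE, adjusted p = 0.000504) with the exchanged arrays. Between KO light and KO dark it was 0.82 ± 0.12 (SE, adjusted p = 0.0201) as labelled. The interaction was 1.30 ± 0.16 (SE, adjusted p = 0.0181) as labelled and 1.52 ± 0.19 (SE, adjusted p = 0.00197) with the exchanged arrays, with KO higher in light and WT lower in light (-0.48 ± 0.13 (SE, adjusted p = 0.0435) in WT with the exchanged arrays). Bmp1, that proteinase itself, had 9.5, 9.28 and 8.67 in KO light against 8.55, 8.72 and 8.77 in WT light retinae, with 9.63 on the array labelled WT dark 4, and differences of 0.47 ± 0.15 (SE, adjusted p = 0.239) as labelled and 0.79 ± 0.08 (SE, adjusted p = 0.000146) with the exchanged arrays.

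Of the 24 collagen-modifying and processing enzymes measured, 1 (Pcolce) was called higher in KO light than in WT light as labelled and 8 with the exchanged arrays (Bmp1, Crtap, Loxl1, Loxl4, P4ha3, Pcolce, Pcolce2 and Plod3), with none lower, beside 0.176% of all genes called as labelled and 4.56% called higher with the exchanged arrays. The median of the list was 0.07 as labelled and 0.17 with the exchanged arrays. Of the 13 metalloproteinases and inhibitors, Mmp14, a collagenase at the cell surface, was called as labelled. Mmp14 had 8.4, 8.23 and 8.25 in KO light against 7.82, 7.82 and 7.84 in WT light retinae, without overlap, with 8.58 on the array labelled WT dark 4, and a difference of 0.47 ± 0.07 (SE, adjusted p = 0.0225) as labelled and 0.58 ± 0.08 (SE, adjusted p = 0.000704) with the exchanged arrays. Timp1, an inhibitor of metalloproteinases, had 7.66, 7.2 and 5.93 in KO light against 6.07, 6.23 and 6.48 in WT light retinae, with 8.14 on that array, and differences of 0.67 ± 0.31 (SE, adjusted p = 0.38) and 1.41 ± 0.17 (SE, adjusted p = 0.000354). Timp3, the inhibitor held in Bruch's membrane, had 10.79, 10.74 and 10.33 in KO light against 10.1, 9.88 and 10.08 in WT light retinae, without overlap, and differences of 0.60 ± 0.11 (SE, adjusted p = 0.0639) and 0.83 ± 0.09 (SE, adjusted p = 0.000156). In the exchanged fit 5 of this list were higher (Mmp2, Mmp14, Timp1, Timp2 and Timp3) and 1 lower (Timp4, -0.22 ± 0.06 (SE, adjusted p = 0.0393)), beside 4.56% and 3.66% of all genes.

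Of the 13 receptors none was called as labelled and 4 were higher with the exchanged arrays (Ddr1, Itga3, Itga6 and Itgb1), beside 4.56% of all genes. Itgb1, the beta subunit of most integrins for collagen and laminin, had 8.79, 8.92 and 8.44 in KO light against 8.45, 8.53 and 8.55 in WT light retinae, with 8.98 on the array labelled WT dark 4, and differences of 0.21 ± 0.10 (SE, adjusted p = 0.395) and 0.39 ± 0.06 (SE, adjusted p = 0.000993). Ddr1, a collagen-binding receptor kinase, had 9.78, 9.78 and 9.3 in KO light against 9.35, 9.3 and 9.33 in WT light retinae, with 9.8 on that array, and differences of 0.29 ± 0.10 (SE, adjusted p = 0.264) and 0.46 ± 0.04 (SE, adjusted p = 9.17e-05). Of the nidogens, perlecan and agrin only Agrn, a basement membrane proteoglycan, was called, with the exchanged arrays. It had 9.47, 9.27 and 9.07 in KO light against 8.81, 8.95 and 9.0 in WT light retinae, without overlap, and differences of 0.35 ± 0.08 (SE, adjusted p = 0.13) and 0.50 ± 0.07 (SE, adjusted p = 0.00064). None of the 5 netrins, which share a domain with laminins, was called in this comparison. With a positive interaction 3 enzymes, 3 metalloproteinases or inhibitors, 2 receptors and Agrn were called with the exchanged arrays, against 2.0% of all genes.

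**Figure D4:**
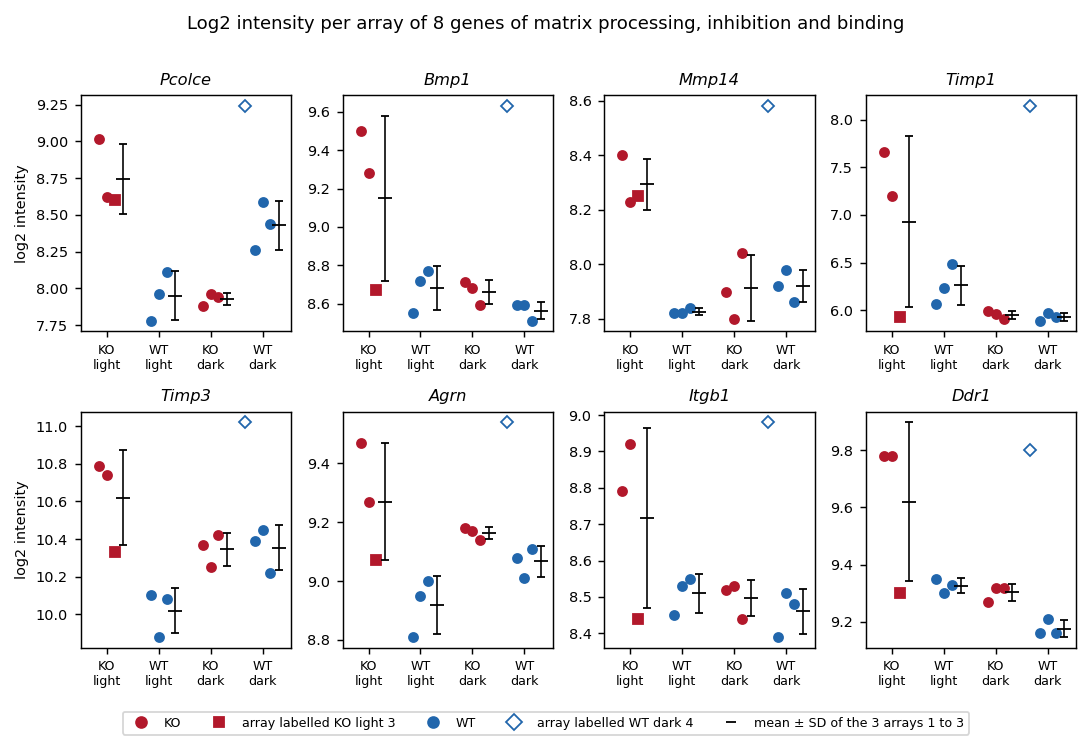
Log2 intensity (y axis) of 8 genes that process, cut, inhibit or bind collagens and laminins on each array, by group (x axis), for KO in red and WT in blue, with the array labelled KO light 3 as a square, that labelled WT dark 4 as an open diamond, and black bars for the mean ± SD of the arrays 1 to 3 of each group. KO light 1 and 2 lie above all WT light arrays for all 8 genes, and for Pcolce, Mmp14, Timp3 and Agrn so does the square.

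Marker lists differed between arrays as well. The reactive glia list averaged 10.01, 9.72 and 8.31 in KO light against 8.31, 8.64 and 9.01 in WT light retinae, and 10.21 on the array labelled WT dark 4. In the dark it averaged 8.03, 8.07 and 8.13 in KO against 7.93, 8.24 and 8.16 in WT retinae. Of its 10 genes 10 were called higher in KO light than in WT light with the exchanged arrays, beside 4.56% of all genes, and none as labelled. The marker lists and the lists of enzymes, metalloproteinases and receptors above were chosen with earlier results of these data known. Their counts beside the shares of all genes are therefore not an independent test. The rod list averaged 11.97, 12.13 and 12.21 in KO light against 12.33, 12.28 and 12.26 in WT light retinae, with 11.92 on the array labelled WT dark 4, and 6 of its 9 genes were called lower with the exchanged arrays, beside 3.66% of all genes. The pigment epithelium and melanocyte list averaged 6.94, 7.72 and 7.3 in KO light against 6.99, 6.49 and 6.83 in WT light retinae. The list for fibroblasts of choroid and sclera averaged 6.22, 6.52 and 6.22 in KO light against 6.26, 6.15 and 6.14 in WT light retinae. On the array labelled WT dark 4 these lists averaged 7.34 and 6.25, and KO light 2 was the highest array for both. With the exchanged arrays 3 of 12 and 1 of 10 of their genes were called higher, beside 4.56% of all genes. In the dark the fibroblast list averaged 6.36, 6.32 and 6.34 in KO against 6.19, 6.25 and 6.24 in WT retinae, without overlap. The pigment epithelium and melanocyte list averaged 7.2, 6.96 and 7.47 in KO dark against 7.11, 7.27 and 7.12 in WT dark retinae, with overlap. The part of these cells in the differences of collagens and laminins was not tested.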

How the data were processed

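Probe set intensities on a linear scale were deposited by the authors for 13 arrays, and their methods name Partek and Bioconductor. For the versions, the summarization and the normalization between arrays nothing was found (not given in the sources used here). Array medians lay between 141.1 and 145.6. RNA was extracted with Trizol by the labels and with the miRNeasy kit by the methods, which also state that mice were male. The female-expressed Xist had 11.86 to 12.02 in KO dark and WT dark 1 to 3. It had 4.67 to 5.31 in the light arrays and WT dark 4. The Y-linked Eif2s3y had 4.12 to 4.56 and 9.71 to 10.26 in the same 2 sets. The sexes on the arrays were thus those of the labels. Intensities were taken to log2 here, and probe sets with exactly 1 symbol (21640 of 34760) were averaged per gene. Precision is limited by how many arrays a group has, and dim probe sets were not removed.

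The 12 arrays without WT dark 4 were fitted as 4 groups using limma 3.58.1 (R 4.3.3) with no covariate, with Benjamini-Hochberg adjustment over 19937 genes. WT dark 4 was left out because the legends of the study give 3 samples per group, although they do not name the arrays used. The fit was tested on simulated data. The replicates are separate mice by the labels. Alternatives were the exchanged arrays, 13 arrays, each array left out, only the 2 groups compared, ordinary variances and a replicate block. Others were quantile normalization, only the 13292 brighter genes, an offset of 16 and the brightest probe set. Ordinary variances are those of an ANOVA, the test that the methods name, but whether the fit equals the paper's is not known. Some of the alternatives were also run with the exchanged arrays, chosen after seeing the data. Per-array values were given for members called in any comparison, the 4 smallest p-values of each, the 3 highest and 3 lowest means, all type IV collagens and a set of members known from the eye. The members and lists were chosen with earlier results of these data known. Promoters came from RefSeq (GRCm38.p6). Partner lists matched 59 of 63 genes.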

Additional observations from a re-analysis of the deposited data

Results flagged for a closer look

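Among the 4 arrays labelled WT dark, the gap of WT dark 4 to its nearest neighbour was divided by the whole range (the Dixon ratio). This ratio passed the limit for an outlier for 2 of the 54 genes, at 1.000 for Col11a1 and 0.884 for Col13a1. Chance alone gives about 1 such group in 20. Col11a1 had 7.36 on that array and 7.39 on each of the others, so that its gap is small and stands out only because the others tie. Col13a1 had 7.11 on it and 7.43, 7.45 and 7.47 on the others. WT dark 4 lay outside the range of the other 3 for 43 of the 54 genes, some of them by more, such as Col12a1 with 7.76 against 7.33, 7.31 and 7.2 and Col4a4 with 6.77 against 7.15, 7.38 and 7.31. The share of all genes for which this held is not given, so the count does not set the members apart.

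With the exchanged arrays the change from dark to light, in which sex changes too, differed between KO and WT by the interaction for 2 genes. The values were -0.32 for Col20a1 and -0.33 for Col24a1 on the log2 scale (limma, adjusted p = 0.0249 and 0.0289). As labelled the adjusted p-values were 0.428 and 0.356.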

How the results depend on the processing

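As labelled no member was called in any comparison, and this held with 13 arrays, ordinary variances, quantile normalization, with only the 13292 brighter genes, with an offset of 16 and with the brightest probe set. It also held with the replicate block, which called 0 members and 3 to 17 genes. The numbers did not pair the arrays, since same-numbered arrays of different groups deviated together in some pairs and apart in others, with correlations of -0.1915 to 0.2197. With the exchanged arrays 7 members were called for KO light against WT light, 2 for KO dark against WT dark, 8 for KO light against KO dark and 2 for the interaction, and the 6 dark arrays alone called 2 in the dark. Without 1 array in turn the counts ran from 0 to 3, 0 to 2, 0 to 5 and 0 to 1 for the same comparisons, where the fit without KO light 3 gave 3, 2, 5 and 1 and the fit without KO light 1 gave 1 in the dark, and WT light against WT dark stayed at 0. Col9a1 changed sign, with log2 differences of -0.234 to 0.026 against WT light and -0.208 to 0.0525 against KO dark when 1 array was left out. With the exchanged arrays, leaving out 1 more array gave 5 to 8, 2, 6 to 8 and 0 to 3 members, and 3, 2, 5 and 1 where it was the array labelled WT dark 4, and ordinary variances gave 0 for the interaction, against 2. The median of the 54 genes for KO light against WT light was -0.0178 as labelled and -0.0708 with the exchanged arrays. The cause of these changes was not tested. Of the 624 values of named members under these alternatives 586 kept their direction and side of the threshold, 33 passed it in addition and 5 turned sign. Of 444 more with the exchanged arrays 394 kept both, 46 lost their call and 4 gained one.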
